A study of Mus musculus with 4 samples.

Results

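The histone cluster genes are the 68 of 24391 genes in the deposited pancreas count table whose symbols begin with Hist1h, Hist2h, Hist3h or Hist4h, taken by that pattern alone. Of the 68, 17 had 20 or more counts summed over the 4 libraries, 35 had between 1 and 19, and 16 had no count in any library. The 4 RNA-seq libraries came from whole pancreas of E18.5 mouse embryos, all carrying *Pdx1-Cre* on a mixed strain background with C57BL/6. The 2 controls had wild-type *Rest* by their labels, although a heading in the study's supplement calls the control line Rest LSL. The 2 *Rest* pKO libraries came from embryos in which a conditional *Rest* allele loses exon 4. *Pdx1-Cre* acts in the pancreatic epithelium and leaves mesenchymal and blood cells untouched, so the tissue keeps *Rest* in those cells. The study's methods give 3 pancreata per genotype, and which of them the 4 libraries hold is not given in the sources used here, so the p-values below measure only the spread between these libraries.

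Histone cluster genes encode the replication-dependent histones, the core proteins H2A, H2B, H3 and H4 around which DNA is wrapped and the linker H1 that binds between nucleosomes. They are transcribed in S phase, and most of their mRNAs end not in a poly(A) tail but in a short conserved stem-loop, which is bound by the protein SLBP and formed by cleavage with the U7 snRNP. Some members also make spliced or extended polyadenylated transcripts, as replication-independent histone variant genes commonly do. Such transcripts are known from cells that have left the cycle. REST is a zinc-finger repressor of neuronal and endocrine genes.

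In the mm9 annotation (GENCODE M1), 54 of the members lie in the Hist1 cluster on chromosome 13, 10 in Hist2 on chromosome 3, 3 in Hist3 on chromosome 11, and 1, *Hist4h4*, on chromosome 6. They comprise 6 H1, 18 H2A, 19 H2B, 12 H3 and 13 H4 genes. The transcripts are compact, with 62 of the 68 genes made of 1 block of exon sequence and a median exon length of 530.5 bases, from 312 to 3821 bases. An annotated reading frame was present for 66 genes, while *Hist2h3c2* and *Hist3h2bb-ps* were annotated as pseudogenes.

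The stem-loop is the shared feature of these mRNAs, and its sequence was read from the mm9 genome for 63 of the 66 genes with a frame, starting 21 to 58 bases after the stop codon. It is shown for 4 genes that took many counts, for *Hist1h2ac*, which took few, and for both H4 genes tested. Sequences are written 5′ to 3′ on the strand of the gene, as DNA, with the 16 bases of the stem-loop in capitals and 5 bases on each side.
Hist1h2bc, chr13:23776511-23776536, plus strand: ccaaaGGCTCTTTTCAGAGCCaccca
Hist1h1c, chr13:23831376-23831401, plus strand: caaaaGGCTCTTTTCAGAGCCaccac
Hist3h2a, chr11:58768669-58768694, plus strand: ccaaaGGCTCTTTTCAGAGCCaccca
Hist3h2ba, chr11:58762846-58762871, plus strand: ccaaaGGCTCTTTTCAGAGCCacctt
Hist1h2ac, chr13:23775341-23775366, minus strand: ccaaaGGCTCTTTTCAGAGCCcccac
Hist1h4h, chr13:23623322-23623347, plus strand: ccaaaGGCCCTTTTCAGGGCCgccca
Hist1h4i, chr13:22132830-22132855, minus strand: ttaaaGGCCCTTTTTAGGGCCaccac

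The capitals of the first 5 genes are identical, and that form was found in 39 members, 5 of them H1, 15 H2A, 12 H2B and 7 H3 genes. It was found in 0 of the 13 H4 genes. A form that differs in the loop, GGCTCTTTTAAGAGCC, was found in 9 further members, again none of them H4. The commonest H4 form, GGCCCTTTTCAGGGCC, was found in 8 genes, all H4, so that the H4 genes stood apart from the other types by the stem. The stem-loop did not separate the genes with many counts from those with few, since *Hist1h2ac* carries the same 16 bases as *Hist1h2bc*. The 3 genes without a match were *Hist2h2be*, *Hist2h2bb* and *Hist1h2an*.

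Few members were well counted. Over all genes of the count data, 62.9% had 20 or more summed counts, against 25% of the histone cluster genes. The share of genes with no count in any library was alike, at 24.3% for the table and 23.5% for the members, so the members differed from other genes mainly in how many had between 1 and 19 counts. Each library had a count for between 34 and 38 of the 68 members, and 21 members were counted in all 4 libraries. The libraries held between 16936759 and 24134100 counts, and 3 counts, taken as the floor of detection, corresponded to between 0.1367 and 0.1786 CPM (counts normalised to TMM-scaled library size).

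**Figure D1:**
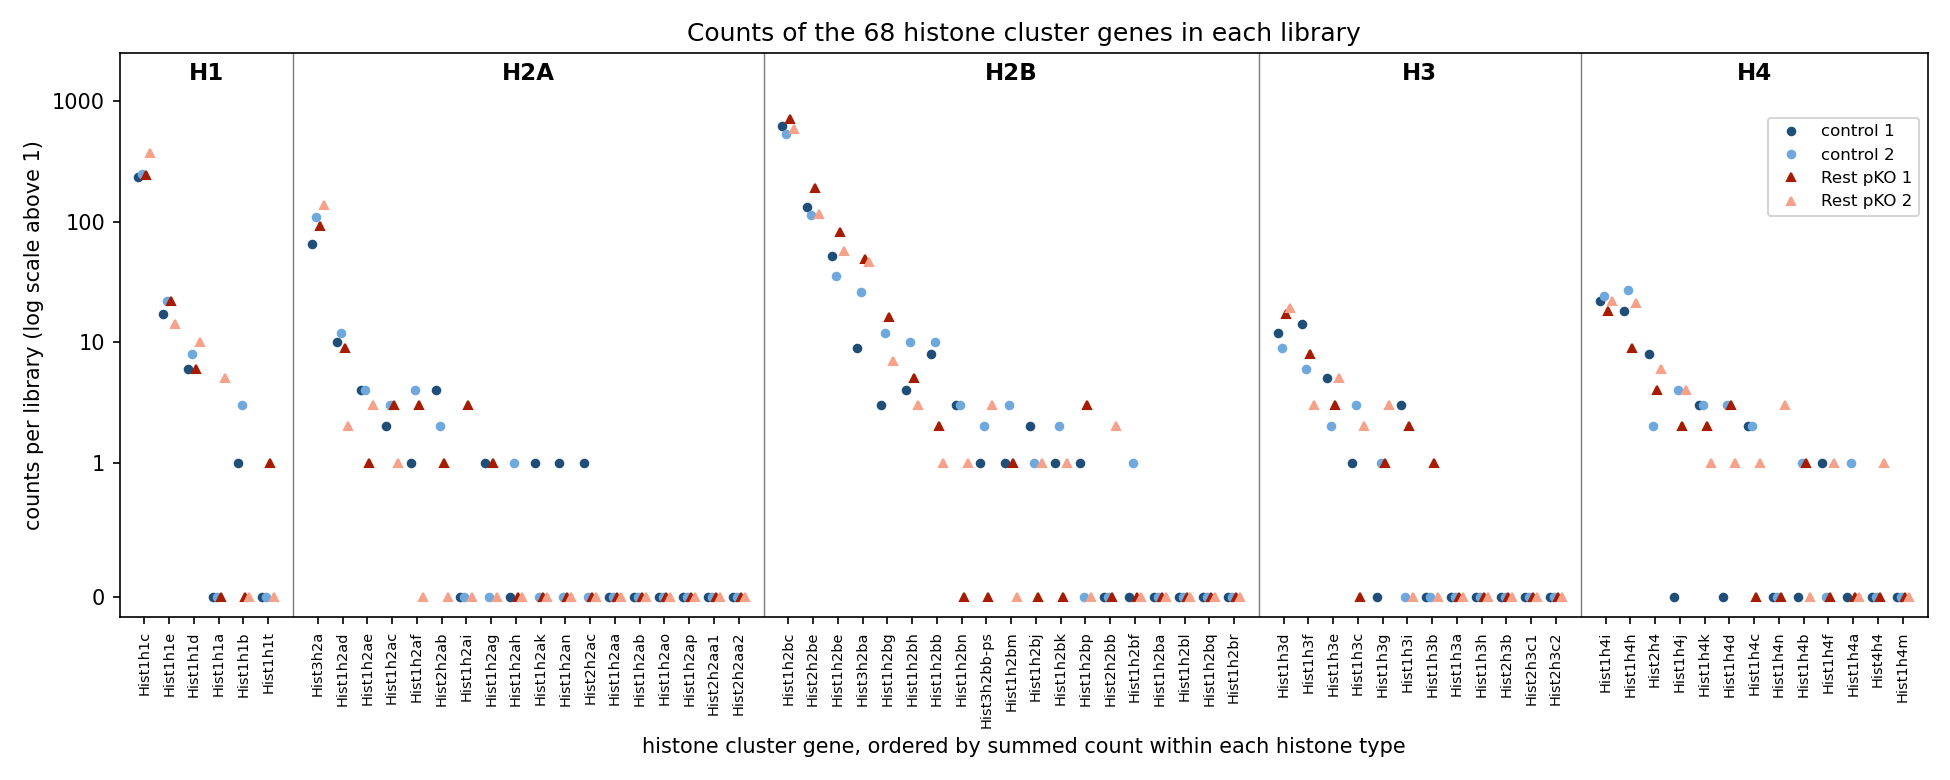
Counts of each of the 68 histone cluster genes in the 2 control (circles) and 2 Rest pKO (triangles) libraries, grouped by histone type on the horizontal axis, with counts on a vertical axis that is logarithmic above 1. Hist1h2bc and Hist1h1c stand far above the rest, and most genes lie at or below 10 counts in every library.

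A handful of genes took almost all the counts. *Hist1h2bc* and *Hist1h1c* together took 64.3% of the 5493 counts assigned to members, and the 7 genes with the highest counts took 89.8%. By type, H2B genes took 63% of the member counts and H1 genes 22%, while H2A took 8.74%, H4 4.02% and H3 2.18%. The counts were far from equal between types. Nucleosomes hold the core histone proteins in equal numbers, but these are shares of mRNA counts, a different measure. The shares were not corrected for transcript length or unique sequence, and *Hist1h2bc* alone took 2438 of the 3461 H2B counts. Per kilobase of annotated exon, *Hist1h2bc* reached 41.7 CPM, *Hist1h1c* 8.75 CPM, *Hist2h2be* 2.65 CPM, *Hist3h2ba* 2.51 CPM and *Hist3h2a* 2.49 CPM. On the same per-kilobase scale no other member exceeded the 2.03 CPM of *Hist1h4i*. The order below *Hist1h1c* changed per 1000 windows of 100 bases that occur once in the genome. On that scale *Hist1h4h* stood at 4.17 CPM, *Hist1h4i* at 3.18, *Hist3h2ba* at 3.13, *Hist2h2be* at 2.76, *Hist3h2a* at 2.62 and *Hist1h2ad* at 2.48.

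The genes that were counted tended to be those with an annotated polyadenylated 3′ end. A poly(A) signal, AATAAA or ATTAAA, was present in the last 50 bases of the annotated transcript in 17 of the 66 genes with a frame. These 17 genes took 91.9% of the member counts, and 9 of them reached 20 counts. The 49 genes without it took 8.01%, and 8 of them reached 20. Genes annotated with no 3′ UTR, such as *Hist1h1b*, *Hist2h2ab* and *Hist4h4*, were placed with the 49, so an absent signal can reflect a short annotation. The split was made with the counts in view and is given without a test.

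The named members show the pattern. *Hist1h2bc*, which codes for an H2B, spans chr13:23776068-23784357, and its annotated transcript splices past the stem-loop into a second exon, leaving the stem-loop outside every annotated exon. *Hist2h2be*, another H2B gene, has an annotated 3′ UTR of 2192 bases and no match to the stem-loop in the 150 bases after its stop codon, the only stretch searched. *Hist1h1c*, the gene of linker histone H1.2, *Hist3h2a* and *Hist1h2be* keep the stem-loop but run on past it, with annotated 3′ UTRs of 879, 1544 and 1834 bases. All 5 carry the poly(A) signal. *Hist3h2a* begins at the same annotated base as *Trim17* on the same strand, and *Hist1h2be* overlaps *Gm11398* on its own strand, and how the authors' counting divided such reads is not known.

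A poly(A) signal did not always come with counts. The others with the signal and under 20 counts were *Hist1h2ae* with 12 summed counts, *Hist1h2bp* with 4, *Hist1h2ai* with 3, *Hist1h1t* and *Hist1h4a* with 1 each, and *Hist1h2bq*, *Hist1h2br* and *Hist2h3c1* with 0. Nor did a long 3′ UTR, since *Hist1h1d*, annotated with 3097 bases, had 30 counts, and *Hist1h2ac*, with 2058 bases, had 9. Across the 66 genes the rank correlation of longest 3′ UTR with summed count was 0.36, and 0.21 with CPM per kilobase, as a description of genes that share the same 4 libraries. A longer transcript gives more reads from equal numbers of molecules, which is why the per-kilobase value is given as well.

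**Figure D2:**
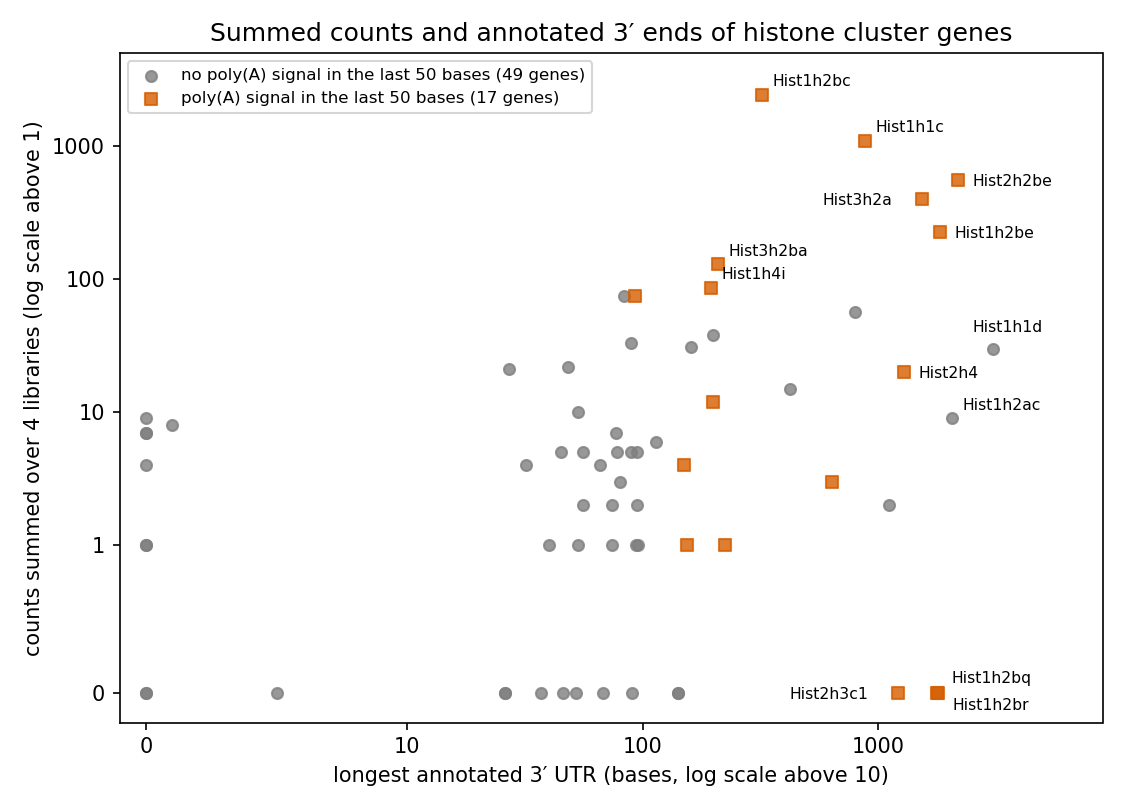
Longest annotated 3′ UTR in bases against counts summed over the 4 libraries for the 66 histone cluster genes with a reading frame, both axes logarithmic above small values, with squares for the 17 genes that have a poly(A) signal in the last 50 bases of the transcript. The 7 genes of highest count are all squares, while the other squares lie between 0 counts and the 75 of Hist1h4h.

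Near-identical copies limit what could be counted, since the authors kept reads with 1 mapping position. For each gene, the share of 100-base windows of its exons that occur once in the mm9 genome was computed. It was 0% in 6 genes, *Hist1h2ao*, *Hist1h2ap*, *Hist1h2bq*, *Hist1h2br*, *Hist2h2aa1* and *Hist2h2aa2*, all of which had 0 counts and could not have been counted from single 100-base reads. The other 10 genes with 0 counts had such windows. *Hist1h2bc* headed the list although only 50.4% of its windows were unique, and *Hist1h2ac*, with 92.3% unique, had 9 counts. Whether RNA was selected for poly(A) tails is not given in the sources used here, and its part in these counts was not tested.

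Many H2A and H2B genes lie head to head, transcribed away from each other from a shared stretch of DNA. With a limit of 1000 bases between the annotated starts, 14 such pairs were found among the members, 13 of them an H2A with an H2B and the other *Hist1h2bh* with *Hist1h3f*. In 5 pairs 1 gene had 20 or more counts and its partner did not, in 8 neither did, and in 1 both did. The partners named next were chosen after their counts were seen.

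The *Hist1h2ac* and *Hist1h2bc* pair held the member with the most counts. *Hist1h2bc* had 618 and 528 counts in control pancreas and 704 and 588 in *Rest* pKO. *Hist1h2ac*, transcribed from the opposite side of 250 bases, had 2 and 3 counts in control pancreas and 3 and 1 in *Rest* pKO, so that the summed counts differed 271-fold. The gap was present in each of the 4 libraries and in both genotypes.

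The *Hist2h2ac* and *Hist2h2be* pair was alike. *Hist2h2be* had 133 and 114 counts in control pancreas and 190 and 116 in *Rest* pKO. *Hist2h2ac* had a single count, in control 1, which is under the floor of 3 counts, so no ratio is given. *Hist3h2a* had 65, 109, 91 and 137 counts against 6 counts in all for the pseudogene *Hist3h2bb-ps* across 172 bases. The partners with few counts had 92.3% to 93.2% unique windows, so most of their sequence could be counted.

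The DNA between the genes of both H2A and H2B pairs is printed because each stretch lies before a well-counted gene and, on its other side, a gene with almost no counts. Both are read from mm9 on the plus strand, with capitals for 3 motifs on either strand, the octamer ATTTGCAT bound by OCT1, the TATA motif TATAAA, and CCAAT. No 2 matches overlap in either stretch. Each is a match of letters and not a measured binding site.
Hist1h2ac to Hist1h2bc, chr13:23775818-23776067: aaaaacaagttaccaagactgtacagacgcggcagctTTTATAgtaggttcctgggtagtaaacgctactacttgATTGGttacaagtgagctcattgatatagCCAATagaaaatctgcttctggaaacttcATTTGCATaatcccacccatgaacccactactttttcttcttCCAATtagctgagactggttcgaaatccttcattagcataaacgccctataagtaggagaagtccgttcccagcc
Hist2h2ac to Hist2h2be, chr3:96024804-96025043: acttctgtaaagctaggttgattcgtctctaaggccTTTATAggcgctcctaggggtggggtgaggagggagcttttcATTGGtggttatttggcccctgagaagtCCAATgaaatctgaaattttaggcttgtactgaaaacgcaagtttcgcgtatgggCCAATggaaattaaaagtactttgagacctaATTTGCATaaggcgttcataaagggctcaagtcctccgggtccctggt

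Both stretches hold 1 octamer, 1 TATA motif and 3 CCAAT motifs. In both, the TATA motif reads TTTATA on the plus strand and so lies in the orientation of, and close to, the H2A gene with few counts. Only exact matches were marked. TATAAG close to *Hist1h2bc* and CATAAA close to *Hist2h2be* each differ from TATAAA by 1 letter and are not in capitals. Use of any of these motifs was not tested.

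**Figure D3:**
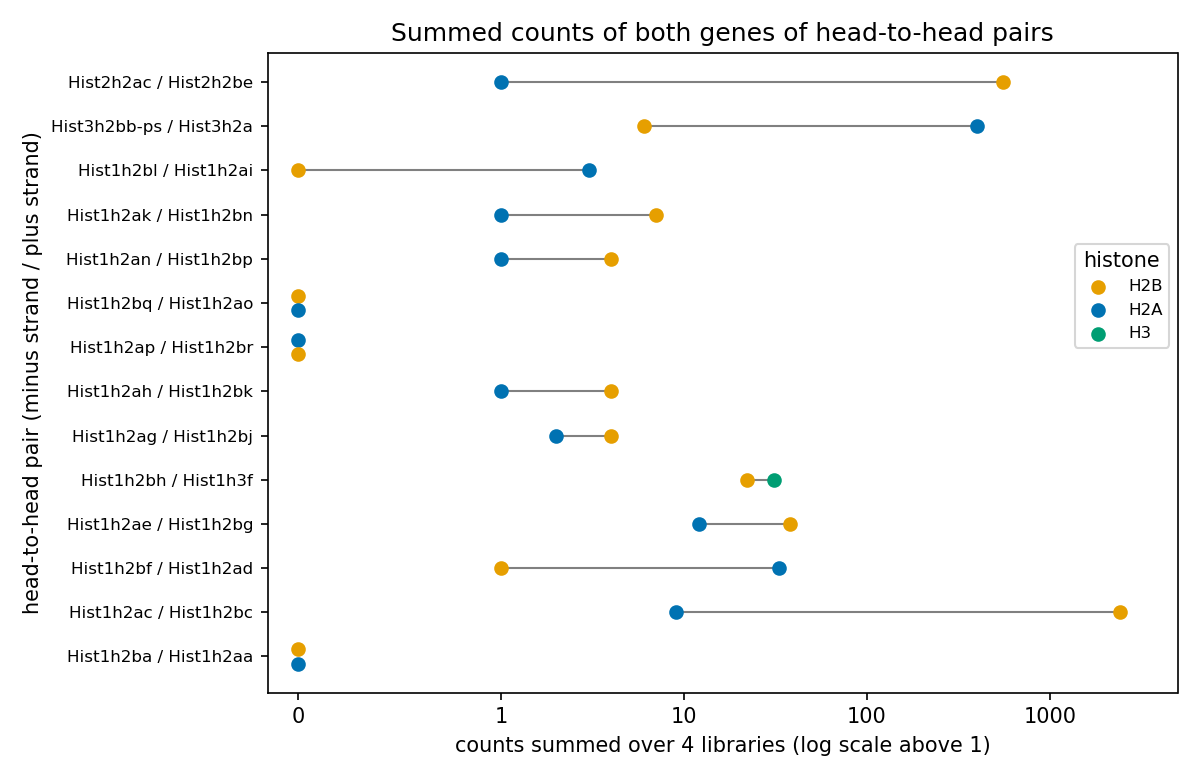
Counts summed over the 4 libraries for both genes of each of the 14 head-to-head pairs, on an axis that is logarithmic above 1, coloured by histone type and joined by a line. The pairs of Hist1h2bc, Hist2h2be and Hist3h2a are the widest apart, and 3 pairs lie at 0 for both genes.

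RefSeq promoters (GRCm38.p6, 250 bases before to 50 after the gene's start) could be matched to 61 of the members through their newer symbols. The 7 without a single entry were *Hist1h2ap*, *Hist1h2bc*, *Hist1h3a*, *Hist1h3f*, *Hist2h2be*, *Hist2h4* and *Hist3h2bb-ps*. CCAAT, in either orientation, was in all 6 H1, 17 H2A, 16 H2B and 10 H3 promoters but in 25% of the 12 H4 promoters, against 37.9% of the 27025 promoters of all genes. The octamer was in 41.2% of H2A and 37.5% of H2B promoters, in 0 of the H1, H3 and H4 promoters, and in 1.75% of all promoters. The TATA motif was in 57.4% of the member promoters and 14.2% of all. Head-to-head genes share promoter sequence, so these genes are not separate samples of it.

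Over the matched promoters, the motifs were present at like shares in well and poorly counted genes. Among the 13 matched members with 20 or more counts, 23.1% had the octamer, 61.5% the TATA motif and 84.6% CCAAT. Among the 48 with fewer counts the shares were 20.8%, 56.2% and 85.4%. *Hist1h2bc*, *Hist2h2be*, *Hist1h3f* and *Hist2h4* had 20 or more counts but no matched promoter and are left out. The stretches printed above before *Hist1h2bc* and *Hist2h2be* hold each of these motifs. The octamer was in H2A and H2B promoters alone, so the mix of types also enters these shares.

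The comparison of genotypes asks whether loss of REST in the pancreatic epithelium changed histone mRNA levels. *Rest* itself stood at 14.2 and 15.7 CPM in control pancreas and at 12.1 and 9.16 CPM in *Rest* pKO. Each *Rest* pKO library was lower than each control, at a log2 fold change of -0.49 ± 0.23 (SE), and the difference did not pass edgeR's quasi-likelihood test (adjusted p = 0.593). The table gives 1 count per gene, which includes exons that the allele leaves in place. In bulk tissue, fewer cells expressing a gene and less RNA per cell cannot be told apart.

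Of the 68 members, 12 had counts high enough to be tested. With edgeR's quasi-likelihood test at an adjusted p under 0.05, 0 of the 12 were higher in *Rest* pKO and 0 were lower, against 0% and 0.0275% of the 14550 genes tested. DESeq2 also called 0 of the 10 members for which it gave an adjusted p. It called 26 genes higher and 76 lower of the 14250 genes with an adjusted p. At an unadjusted p under 0.05 edgeR had 1 member higher and 0 lower, against 3.26% and 5.61% of all genes. Of the 12, 7 had a log2 fold change above 0 and 5 below, and their median was 0.07, against 0.00 (-0.0048) over all genes tested. The filter needs counts in at least 2 libraries, so the 12 are not a sample of all 68. *Hist1h2ad*, 1 of the 5 below 0, passed it only through the controls.

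**Figure D4:**
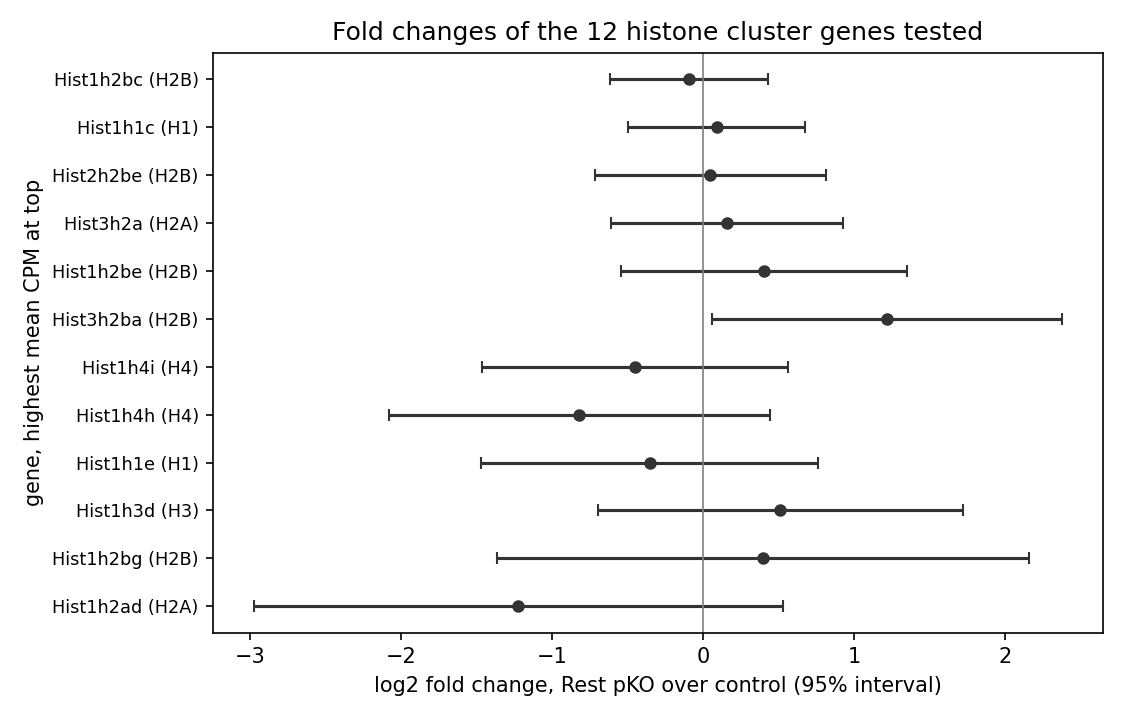
Log2 fold change of Rest pKO over control for the 12 histone cluster genes tested, with 95% intervals from edgeR's quasi-likelihood fit, the gene of highest mean CPM at the top. The intervals widen down the list as counts fall, and the interval of Hist3h2ba alone lies to one side of 0.

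The members with the most counts had the narrowest intervals. *Hist1h2bc* stood at 36.8 and 26.6 CPM in control pancreas and 32.6 and 26.8 CPM in *Rest* pKO, and the *Rest* pKO libraries fell between the controls. Its log2 fold change was -0.09 ± 0.22 (SE), with a 95% interval from -0.62 to 0.43 and an adjusted p of 0.895 by edgeR's quasi-likelihood test. *Hist1h1c* stood at 13.9 and 12.6 CPM in control pancreas and at 11.2 and 16.9 CPM in *Rest* pKO, which spread to both sides of the controls. Its log2 fold change was 0.09 ± 0.25 (SE), with an interval from -0.50 to 0.67 and an adjusted p of 0.912 in the same test. For both genes the interval lay within a log2 change of 1 in either direction.

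The other well-counted H2A and H2B genes overlapped between genotypes as well. *Hist2h2be* stood at 7.92 and 5.75 CPM in control pancreas and 8.81 and 5.28 CPM in *Rest* pKO, at 0.05 ± 0.33 (SE) on the log2 scale. *Hist3h2a* stood at 3.87 and 5.50 CPM against 4.22 and 6.24 CPM, at 0.16 ± 0.33 on that scale. *Hist1h2be* stood at 3.10 and 1.77 CPM against 3.80 and 2.60 CPM, at 0.40 ± 0.41. In each of these 3 genes the difference between the replicates of a genotype was as wide as that between genotypes, and the adjusted p by edgeR's quasi-likelihood test was 0.965, 0.882 and 0.753.

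*Hist3h2ba*, an H2B gene of the Hist3 cluster at chr11:58762413-58763032, was the member with the smallest p. It had 9 and 26 counts in control pancreas and 49 and 46 in *Rest* pKO, or 0.536 and 1.31 CPM against 2.27 and 2.10 CPM. The *Rest* pKO libraries lay above both controls, and the controls differed from each other more than the *Rest* pKO libraries did. Its log2 fold change was 1.22 ± 0.50 (SE), with an unadjusted p of 0.0417 and an adjusted p of 0.541 by edgeR's quasi-likelihood test, so it was not called. The fold rested on control 1, the library with 9 counts: without it the log2 fold change was 0.73, and without control 2 it was 2.01, with adjusted p of 1.00 and 0.423 in the same test. Its neighbour *Hist3h2a*, on the same strand of the cluster, overlapped between genotypes.

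Both H4 genes tested had lower values in *Rest* pKO. *Hist1h4h* stood at 1.07 and 1.36 CPM in control pancreas and 0.417 and 0.957 CPM in *Rest* pKO. *Hist1h4i* stood at 1.31 and 1.21 CPM against 0.835 and 1.00 CPM. Neither overlapped between genotypes, and neither was called, with log2 fold changes of -0.82 ± 0.54 and -0.45 ± 0.43 (SE) and adjusted p of 0.667 and 0.744 by edgeR's quasi-likelihood test.

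The remaining tested genes had few counts. *Hist1h2ad*, an H2A gene, had 10 and 12 counts in control pancreas and 9 and 2 in *Rest* pKO. Its log2 fold change was -1.22 ± 0.75 (SE), with an adjusted p of 0.652 by edgeR's quasi-likelihood test. This gene passed the count filter only through the controls, where it was higher, so its direction was partly set by the filter. *Hist1h3d*, the only H3 gene tested, had 12 and 9 counts against 17 and 19 and a log2 fold change of 0.51 ± 0.52. *Hist1h1e*, the gene of linker histone H1.4, and *Hist1h2bg* overlapped between genotypes, at -0.36 ± 0.48 and 0.39 ± 0.75. Over the 12 genes, 2 had both *Rest* pKO libraries above both controls and 3, with *Hist1h2ad* among them, had both below. Of all genes tested, 21.5% and 21.2% did.

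The summed level of all 68 members did not differ beyond the spread between replicates. It was 75.7 and 63.2 CPM in control pancreas and 69.8 and 66.6 CPM in *Rest* pKO, or 69.5 ± 8.86 CPM and 68.2 ± 2.29 CPM (SD, n = 2 each), at a log2 ratio of -0.03. H2B genes summed to 43.7 ± 8.55 CPM in control pancreas and 43.2 ± 7.89 CPM in *Rest* pKO, and H1 genes to 14.8 ± 0.725 and 15.4 ± 4.0 CPM. H2A genes summed to 6.08 ± 1.03 and 5.85 ± 0.934 CPM, and H3 genes to 1.57 ± 0.724 and 1.47 ± 0.0185 CPM. Among the types only the H4 sum did not overlap between genotypes, at 3.21 and 3.38 CPM in the controls against 1.81 and 2.78 CPM in *Rest* pKO. Of its 221 counts, 86 came from *Hist1h4i* and 75 from *Hist1h4h*, described above, so this sum is not separate evidence. Of single genes tested, 21.5% had both *Rest* pKO libraries above both controls and 21.2% had both below.

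The well-counted and the poorly counted members were also summed apart. The 7 genes with the highest counts summed to 67.4 and 54.8 CPM in control pancreas and 63.8 and 60.9 CPM in *Rest* pKO, with *Rest* pKO between the controls. The other 61 genes summed to 8.33 and 8.42 CPM in control pancreas and to 6.03 and 5.69 CPM in *Rest* pKO, a log2 ratio of -0.52 from 562 counts in all. Replicates of a genotype lay close together there, and the genotypes did not overlap. Such a separation is common with these libraries, as 21.2% of single genes tested had both *Rest* pKO libraries below both controls and 21.5% above. This division was made after the counts were seen and was not tested. Over the 13312 tested genes with an annotated exon length, the log2 fold change had a rank correlation of -0.30 with that length, given as a description of genes that share the same 4 libraries, so that longer genes tended to be lower in *Rest* pKO. The histone cluster genes are short, and shorter genes tended to be relatively higher in that correlation, while the sum of the 61 was lower. The part of length or of RNA quality in their values was not tested.

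Subsets of these 61 genes were summed as well, and since they hold the same counts they are not separate evidence of a direction. The 49 genes without a poly(A) signal, all among the 61, summed to 6.43 and 6.61 CPM in the controls against 5.05 and 4.19 CPM, and the 51 genes with fewer than 20 counts, also among the 61, to 2.38 and 2.47 CPM against 1.48 and 1.78 CPM. *Hist1h2bb*, named after its values were seen and too low to be tested, had 8 and 10 counts in control pancreas and 2 and 1 in *Rest* pKO.

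**Figure D5:**
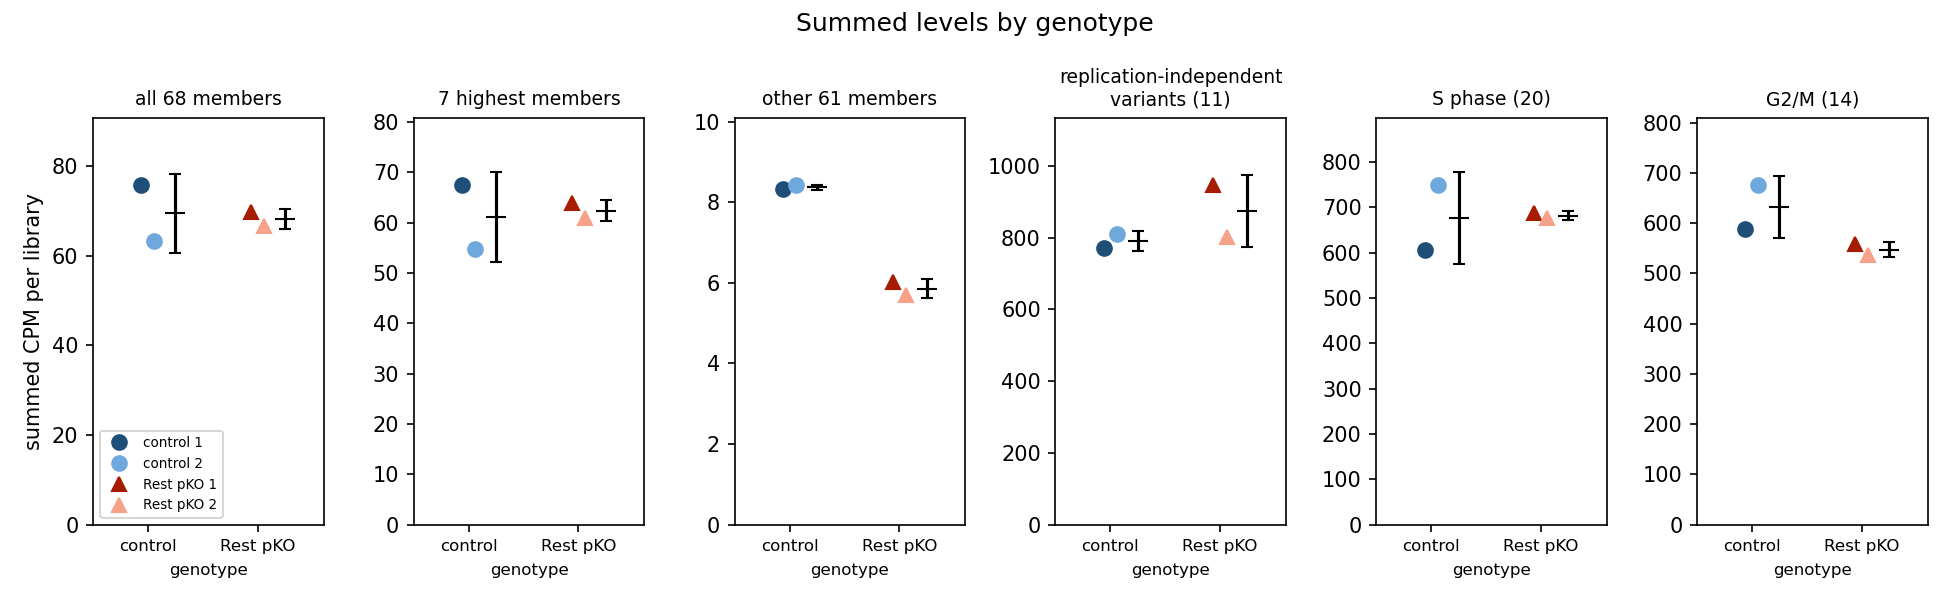
Summed CPM per library in controls (circles) and Rest pKO (triangles) for all 68 members, the 7 with the highest counts, the other 61, the replication-independent histone variants, and the S phase and G2/M genes, with mean ± SD over 2 libraries beside the points and each axis starting at 0. The other 61 members (8.33 and 8.42 against 6.03 and 5.69 CPM) and the G2/M genes do not overlap between genotypes, and all the members, the 7 highest, the variants and the S phase genes do. The division into 7 and 61 was made after the counts were seen.

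Marker genes of the cell cycle and of other cell types were summed in the same libraries. The 20 S phase genes, such as *Mcm7* of the replicative helicase and *Rrm1* of ribonucleotide reductase, summed to 605 and 749 CPM in control pancreas and 688 and 676 CPM in *Rest* pKO, with a median log2 fold change of 0.03. The 14 G2/M genes summed to 589 and 675 CPM against 558 and 536 CPM, with a median log2 fold change of -0.04. By direction they split into 6 higher and 8 lower in *Rest* pKO. The sum gives most weight to *Mki67*, which had the most counts of the 14 (13935). At an unadjusted p under 0.05 by edgeR's quasi-likelihood test, *Mki67* and *Bub1* were lower and 0 were higher. Over all genes tested, 5.61% were lower and 3.26% higher at that p. *Mki67*, the gene of the proliferation marker Ki-67, stood at 196 and 216 CPM in control pancreas and 149 and 143 CPM in *Rest* pKO, without overlap, and was not called (adjusted p = 0.495, edgeR's quasi-likelihood test).

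Of the 11 erythroid markers listed, 10 were in the table and summed to 32.7 and 136 CPM in control pancreas and 22.3 and 22.1 CPM in *Rest* pKO. The globin genes *Hba-a1*, *Hba-a2*, *Hbb-b1* and *Hbb-b2* were listed at 0 in all 4 libraries, and the sum came mainly from *Alas2* and *Slc4a1*. Control 2 was far above the other libraries in these genes. The 8 mesenchyme markers summed to 8675 and 7748 CPM in control pancreas and 4592 and 7205 CPM in *Rest* pKO, and the 8 of 9 macrophage markers in the table to 274 and 265 CPM against 157 and 218 CPM. The 9 endocrine markers summed to 3117 and 2086 CPM against 4631 and 6659 CPM, and the 6 duct markers to 1032 and 865 CPM against 1151 and 962 CPM. The part of any of these in the histone values was not tested.

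The genes of the cell cycle were well counted where the histone cluster genes were not. The lowest S phase gene had 765 summed counts and the lowest G2/M gene 978, against 2438 for *Hist1h2bc*, the highest member, and under 20 for 51 of the 68. Among the 15 acinar markers, which include the digestive enzymes that define this tissue at E18.5, the summed level was between 241709 and 347874 CPM.

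Most replication-independent histone variant genes make polyadenylated mRNA and are also expressed outside S phase. All 11 listed were tested, and 0 were called by edgeR's quasi-likelihood test and 0 by DESeq2. Against 3.26% higher and 5.61% lower over all genes tested, 0 of the 11 had an unadjusted p under 0.05 by edgeR. Together they summed to 770 and 811 CPM in control pancreas and 946 and 802 CPM in *Rest* pKO, more than all 68 cluster genes on the same scale of summed CPM, and their median log2 fold change was 0.01. *H3f3b*, 1 of 2 genes for histone H3.3, stood at 284 and 307 CPM against 399 and 271 CPM. *H3f3a*, the other, stood at 90.2 and 84.6 CPM against 99.0 and 60.0 CPM, so both overlapped between genotypes.

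*H1f0*, the gene of the linker histone H1.0 that is known from cells that have stopped dividing, stood at 245 and 239 CPM in control pancreas and 284 and 293 CPM in *Rest* pKO. Both *Rest* pKO libraries were above both controls, with a log2 fold change of 0.25 ± 0.18 (SE) and an adjusted p of 0.683 by edgeR's quasi-likelihood test. *H2afv* and *H2afz* code for the H2A.Z proteins and lay on opposite sides. *H2afv* stood at 20.7 and 23.5 CPM against 26.2 and 34.6 CPM, above, and *H2afz* at 10.7 and 12 CPM against 9.92 and 3.78 CPM, below, and neither was called (adjusted p 0.587 and 0.641, edgeR's quasi-likelihood test).

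None of the other variants was called either. *H2afy2*, a macroH2A gene, was above the controls in both *Rest* pKO libraries at a log2 fold change of 0.26 ± 0.20 (SE). *H2afj*, *H1fx*, *H2afy*, *Cenpa*, which codes for the centromeric H3, and *H2afx*, whose protein is phosphorylated at DNA breaks, overlapped between genotypes, with log2 fold changes from -0.43 to 0.10.

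The genes that act on histones were described from 3 further lists. Of 10 genes of histone mRNA 3′ end processing, 9 were in the table and tested, with a median log2 fold change of -0.07. Against 3.26% higher and 5.61% lower over all genes tested, 0 of the 9 had an unadjusted p under 0.05 by edgeR. Among them *Casp8ap2*, whose protein FLASH binds the U7 snRNP, stood at 25.1 and 26.3 CPM in control pancreas and 23.6 and 14.4 CPM in *Rest* pKO, and *Cpsf2*, of the cleavage complex, at 41.2 and 38.9 CPM against 38.2 and 28.2 CPM. Both lay below the controls, by a wider margin in *Rest* pKO 2, and neither was called by edgeR's quasi-likelihood test or DESeq2.

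All 8 genes of histone gene transcription were tested, with a median log2 fold change of -0.11. Against 3.26% higher and 5.61% lower over all genes tested, 0 of the 8 had an unadjusted p under 0.05 by edgeR. *Npat*, the coactivator of histone genes at S phase entry, stood at 27.7 and 28.3 CPM against 26.7 and 18.6 CPM. *Pou2f1*, which codes for the octamer-binding OCT1, overlapped between genotypes, at a log2 fold change of -0.33 ± 0.23 (SE).

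All 14 histone chaperone genes were tested, with a median log2 fold change of 0.06. Against 5.61% of all genes tested, 1 was lower at an unadjusted p under 0.05 by edgeR. This was *Atrx*, part of the complex that deposits H3.3, at 170 and 157 CPM in control pancreas and 132 and 68 CPM in *Rest* pKO, with an adjusted p of 0.557 by edgeR's quasi-likelihood test. *Rbbp7*, a histone-binding subunit of several complexes, stood at 193 and 171 CPM against 160 and 131 CPM. Both were below the controls in both *Rest* pKO libraries. The annotated exons of *Atrx* sum to 15190 bases, those of *Mki67* to 10075, of *Casp8ap2* to 6826 and of *Npat* to 6248. These lengths are not a full list for the lower genes, since *Rbbp7* and *Cpsf2*, also below the controls, are left out. Longer genes tended to be lower in *Rest* pKO over all genes tested, at the rank correlation of -0.30 given above. The part of length in these values was not tested. Over these lists 0 genes were called by edgeR or DESeq2. Calls were few over all genes too, with 0 higher and 4 lower of 14550 by edgeR and 26 and 76 of 14250 by DESeq2. The study itself reported more genes in both directions with DESeq2 at the same threshold. Why the numbers differ was not tested.

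The testis histone genes *Hist1h1t*, *Hist1h2aa* and *Hist1h2ba*, whose products are made in male germ cells, had 1 count between them, in *Rest* pKO 1. *Hist4h4*, the lone member of its cluster, had 1 count, in *Rest* pKO 2, although some cell types make a polyadenylated transcript from it. With so few counts no difference between genotypes was detectable at this depth.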

How the data were processed

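Counts per gene from 2 control and 2 *Rest* pKO libraries of E18.5 pancreas were analysed as deposited. The authors made these counts by sequencing DNase-treated RNA as 100-base read pairs, mapping with STAR to mm9, and assigning reads with a unique position to UCSC genes with featureCounts (1.5 in the submitters' processing notes); strand, pair counting and poly(A) selection are not given in the sources used here, so reads of antisense partners cannot be told apart. The deposited data were 1 table, and genotypes were taken from its column names and the labels.

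All genes were fitted with edgeR 4.0.16 in R 4.3.3 (filterByExpr, TMM, glmQLFit, glmQLFTest), with genotype as the only term, Benjamini-Hochberg adjustment over the 14550 genes tested and a threshold of 0.05. The authors tested genotype with DESeq2, which is an alternative here. Totals were 16936759 and 18644088 counts for control replicates 1 and 2, and 20738162 and 24134100 for *Rest* pKO. Replicates differed by more than sampling noise (chi-square per degree of freedom 23.2 and 64.9), and all 4 libraries were kept. Log2 fold changes are *Rest* pKO over control, ± SE, and sums and means are in CPM.

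Positions, exons and 3′ UTRs came from the mm9 genome (NCBI build 37) and GENCODE M1, matched by symbol. The authors' UCSC gene models can differ from these. The stem-loop was a stem of 6 base pairs around a loop of 4 bases within 150 bases after the stop codon. Uniqueness of 100-base windows was computed with blastn 2.17.0. The fit was tested on simulated data. The genes named were all 12 members tested, the known polyadenylated and testis members, the histone variants, and the genes with the smallest p in each related list; others are said to be chosen after their values were seen. The members and gene lists were chosen with earlier results of these data known. Other settings tried were limma-voom 3.58.1, DESeq2, edgeR with the size factors of DESeq2 or with TMM computed on genes other than acinar and erythroid ones, 2 other count filters, the replicate number as a block, and each library left out in turn.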

Additional observations from a re-analysis of the deposited data

How the results depend on the processing

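With 2 libraries per genotype, calls across the genome depended on the tool and on single libraries. No member was called in either direction under any of the settings run, which says little of stability, since between 10 and 52 members were tested, most of them at low counts. Of 14250 genes with an adjusted p, DESeq2 called 26 higher and 76 lower, where edgeR's quasi-likelihood test called 0 and 4 of 14550. Leaving out 1 library at a time gave from 1 to 59 genes higher and from 0 to 455 lower, most without *Rest* pKO replicate 1 and fewest without *Rest* pKO replicate 2. A setting with 1 library in a genotype assumes that it varies as the other pair does.

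The median log2 fold change of the members tested was 0.07 with the settings of the report, -0.091 over the 17 members with a summed count of at least 20, and from -0.324 to -0.078 when 1 library was left out, where 13 to 15 members were tested. The log2 ratio of summed CPM ranged from -0.15 to 0.11 in the same way. Single genes close to 0 changed sign when 1 library was left out. Their log2 fold changes ranged from -0.31 to 0.15 for *Hist1h2bc*, -0.23 to 0.36 for *Hist1h1c*, -0.36 to 0.37 for *Hist2h2be*, -0.15 to 0.43 for *Hist3h2a* and -0.32 to 1.53 for *Hist1h2bg*. Among the variants they ranged from -0.13 to 0.17 for *H2afx*, -0.54 to 0.18 for *H3f3a*, -0.12 to 0.44 for *H3f3b* and -0.44 to 0.24 for *Cenpa*. Without *Rest* pKO replicate 1, *H2afz* (-1.58, adjusted p = 0.0416) and *Atrx* (-1.26, adjusted p = 0.0289) passed edgeR's quasi-likelihood test. The cause was not tested.

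With the replicate number as a block, 0 members were called, the median was 0.04 and 4 genes in all were called lower. The numbers were not used as a pairing, since the deviations of same-numbered libraries correlated at 0.048 over genes. With no count filter 52 members could be tested, with 1 gene in each direction at an unadjusted p under 0.05. Low counts limit what these data show for the 51 members under 20 counts, of which 0 passed the filter.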
